A study of Homo sapiens with 4 samples.

Results

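The genes described here encode the subunits, activators and assembly factors of the proteasome, taken as all symbols of the expression table made of PSM, a letter from A to G and a number. They numbered 48 of 23577 genes. The table held 1 RNA-seq library from each of 4 untreated human leiomyosarcoma cell lines, RKN, SKLMS1, SKN and SKUT1, grown in serum-containing Dulbecco's medium, and leiomyosarcoma is a cancer that arises from smooth muscle. With 1 library for every line, no difference between lines has a replicate check, no test was run and none of the values has an error. Levels are in FPKM, the fragments counted for a gene divided by its transcript length and by the size of the library, which puts genes of different length on 1 scale. Between lines the values also depend on how the columns are scaled, since their sums ran from 446954 in RKN to 619584 in SKUT1.

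The proteasome is the protease that degrades proteins tagged with ubiquitin. Its 20S core is a barrel of stacked rings, in which the alpha subunits (PSMA genes) form the outer rings and gate the channel, and the beta subunits (PSMB genes) form the inner rings and carry the active sites. The 19S regulatory particle caps the barrel, with ATPases (PSMC genes) that unfold the substrate and non-ATPase subunits (PSMD genes) that bind and remove ubiquitin. After interferon gamma, cells replace the catalytic subunits PSMB5, PSMB6 and PSMB7 by PSMB8, PSMB9 and PSMB10 to form the immunoproteasome, and induce the PA28 activator made of PSME1 and PSME2.

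Smooth muscle markers were unequal among the lines, and most markers of blood cells were nearly absent. The summed FPKM of 6 smooth muscle markers was 171 in RKN, 820.1 in SKLMS1 and 52.1 in SKN, and 6235 in SKUT1, and the late markers DES and MYH11 reached at most 1.10 and 1.15. PTPRC, the pan-leukocyte marker, was at most 0.213, and CD3E and SPI1 were at most 0.108, which matters here because leukocytes carry the immunoproteasome without stimulation. The sum of 6 leukocyte markers was 5.69 in RKN, 23.0 in SKLMS1 and 17.8 in SKN, and 77.3 in SKUT1, most of it CD68, also a lysosomal gene, at 4.76 to 75.3. CD14, a monocyte marker, was 0.793, 0.982, 0.179 and 1.64 in RKN, SKLMS1, SKN and SKUT1. The part of these markers in the results was not tested. The endothelial markers PECAM1, VWF and CDH5 were at most 0.293, and of the epithelial markers KRT8 reached 268 in SKLMS1 and 265 in SKN while EPCAM and CDH1 stayed at or below 1.80. The deposited table gives no read totals, so the depth is unknown. Low values were spaced more widely by a factor of 1.09 in SKLMS1 and 1.32 in SKN, and 1.38 in SKUT1 than in RKN, so RKN had the finest resolution. The factors are the most frequent ratios of values under 0.05 FPKM, shared by 25.3 to 27.0% of 415 to 521 genes within 0.01 on the log2 scale.

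Proteasome genes were abundant and close together in the 4 lines. Of the 48 members, 43 reached 1 FPKM in 1 line or more, the minimum set for a comparison, and each of these 43 stood at 5.95 or more in every line, so none entered through a single high line. The median member was at 95.8 in RKN, 73.0 in SKLMS1 and 92.2 in SKN, and 82.2 in SKUT1, where the median of the 13713 genes compared was between 8.13 and 9.30. The highest and lowest lines of a member were a median 0.74 apart on the log2(FPKM + 1) scale, against 1.31 over the 13713 genes. They were at least 2-fold apart (1 on that scale) for 10 of the 43 members, or 23.3%, against 67.2% of all genes compared and 63.4% of the 6839 genes with a mean FPKM of 10 or more. That count was 18 on the TPM scale (74.9% of all genes), 16 after quantile scaling (68.2%) and 6 without SKUT1 (46.3%). RKN was the highest line for 18 members, against 28.4% of all genes, and SKN for 15, against 21.1%, while on the TPM scale these counts were 30, against 38.5% of all genes, and 9, against 17.9%. At least 4-fold lay between the lines for 2 members, PSMD2 and PSME2, where the share over all genes was 26.7%. This scale understates the difference of low genes, which touches few members at their levels.

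**Figure D1:**
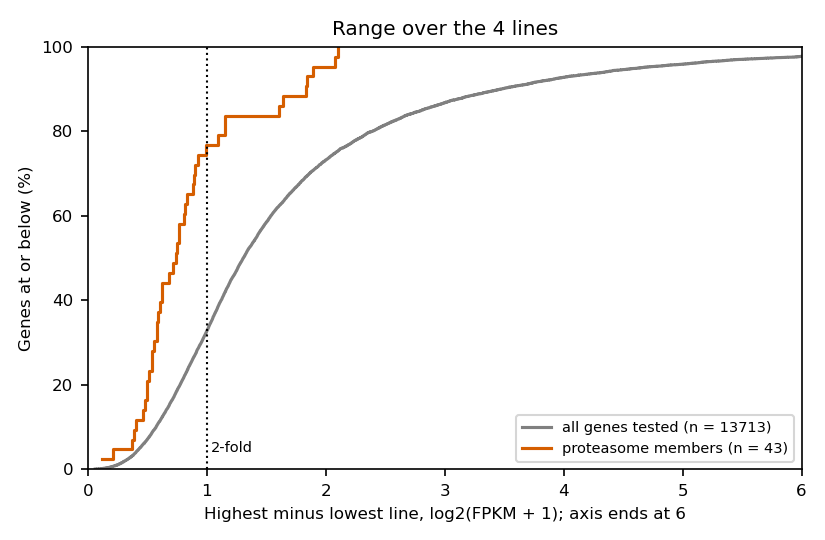
Cumulative share of genes (y axis, percent) against the difference between the highest and the lowest of the 4 lines (x axis, log2(FPKM + 1)), for 43 proteasome members and all 13713 genes compared. The dotted line marks 2-fold, which 10 members and 67.2% of all genes reach, and the largest member range is 2.10.

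The remaining 5 members were PSMA8, PSMB8, PSMB9, PSMB11 and PSMC1. PSMA8, the alpha subunit of the testis proteasome, was listed at 0 in every line. PSMB11, the thymus-specific catalytic subunit, was 0.0384 in SKLMS1 and 0.0233 in SKN and listed at 0 in RKN and SKUT1. PSMC1 encodes an ATPase present in every 26S proteasome, yet it was 0.279 in RKN, 0.259 in SKLMS1 and 0.285 in SKN, and 0.444 in SKUT1, where the other ATPases lay between 41.5 and 161. In GENCODE release 29, 94.6% of the 75-base windows of the PSMC1 coding sequence, the length of a read here, also occurred in pseudogene transcripts, chiefly PSMC1P1. Over the longest transcript marked as principal (4448 bases, untranslated parts included), the share was 27%. Of its 4374 windows only 1246 are coding, so this second share depends on the transcript taken. PSMC1 was the 1 member of the 48 with 50% or more of its coding windows in a pseudogene, and 6 members shared any window with a pseudogene. Loci of other classes are not in these counts. PSMA2 shared 50.1% of its windows with such loci, PSMA1 45.8% and PSMD9 31.5%, and PSMB10 and PSMA6 are described below. How reads with several matches were counted is not given in the sources used here, and the part of the shared windows in the low value of PSMC1 was not tested.

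PSMB8 and PSMB9, which replace PSMB5 and PSMB6 in the immunoproteasome, were listed at 0 in every line, and so were most of their neighbours. Both genes lie in the major histocompatibility complex. Within 20 protein-coding genes of the table on each side of PSMB9 in RefSeq order, 31 of 40 or 77.5% were listed at 0 in all 4 lines. Over all 18770 protein-coding genes placed in RefSeq the share was 12.6%. Other genes of the complex at 0 in all 4 lines were RPS18, a ribosomal protein, TUBB, a beta-tubulin, CSNK2B, a subunit of casein kinase, and BAG6, a chaperone of the cytosol, genes that dividing cells use. The zeros of PSMB8 and PSMB9 therefore say nothing about the immunoproteasome in these lines, and the same holds for the peptide transporter TAP1 and for TAPBP, also at 0 in all 4, and for TAP2, at 0.107 or less.

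The immunoproteasome could thus be followed through PSMB10 alone, which was present at a low and even level. PSMB10 encodes the trypsin-like immunosubunit and was 26.9 in RKN, 27.4 in SKLMS1 and 19.5 in SKN, and 18.9 in SKUT1. RKN and SKLMS1 were the higher lines, and the range of the gene was 0.51, with 7.58% of all genes compared, PSMB10 included, having one no larger. In GENCODE release 29, 35.4% of the 75-base windows of PSMB10 also occurred in the locus AC040162.1. Its constitutive counterpart PSMB7 was 203 in RKN, 141 in SKLMS1 and 237 in SKN, and 179 in SKUT1. Set against PSMB7, PSMB10 stood at 13.3% in RKN, 19.4% in SKLMS1 and 8.22% in SKN, and 10.5% in SKUT1. On the log2 scale PSMB10 lay below PSMB7 in all lines, with differences of -2.87, -2.33, -3.54 and -3.18 in the same order. The share was thus highest in SKLMS1, in which PSMB7 was lowest.

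The PA28 activator was low in SKUT1, and its subunit PSME2 had the widest range of all 43 members. PSME1, its alpha subunit, was 218 in RKN, 216 in SKLMS1 and 194 in SKN, and 60.4 in SKUT1. PSME2, the beta subunit, was 218, 157, 190.4 and 50.1 in the same order. For both genes the 3 other lines lay close to each other and SKUT1 far below, at -1.78 for PSME1 and -1.88 for PSME2 on the log2 scale from the mean of the other lines. With PSMA6 (below), 3 of 43 members were at least 2-fold lower in SKUT1, against 13.1% of all genes compared, and none was 2-fold higher, against 17.9%. The 2 subunits kept similar proportions, with PSME1 at 1.002 times PSME2 in RKN, 1.37 in SKLMS1, 1.02 in SKN, then 1.20 in SKUT1. Leaving out any 1 of the other lines left both differences between -1.74 and -2.002. Fewer cells with the transcript and less transcript per cell cannot be told apart in bulk RNA.

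PSME1 and PSME2 lie next to each other on chromosome 14 with EMC9 between them, and several genes around them were also low in SKUT1. EMC9 encodes a subunit of the complex that inserts membrane proteins. EMC9 was 30.5 in RKN, 18.6 in SKLMS1 and 32.3 in SKN, and 9.36 in SKUT1, a difference of -1.40. Of the 10 nearest protein-coding genes compared around PSME2, 8 were below the other lines in SKUT1, against 51% of all genes. At least 2-fold below were 3, namely PSME1, EMC9 and REC8, against 13.1%, and the median difference of the 10 was -0.62. PSME1 is itself a member whose low value led to this look, and REC8 stood at only 0.115 to 2.29. PCK2 and TM9SF1 were above the other lines, at 0.35 and 0.33. IRF9, a transcription factor of interferon signalling, lies in the same stretch and was level, at 23.3, 22.7, 27.6 and 24.1. These neighbours, like those of other members below, were examined after the members' values had been seen. Neighbours on the same side as the member were common elsewhere too. Around PSME4 in SKLMS1 10 of 10 were below, against 53.6% of all genes. Around PSMD8 in SKN 8 of 10 were below, against 53%, and around PSMA6 in SKUT1 8 of 10, against 51%. Around PSMG4 in RKN 5 of 10 were above, against 48.3%.

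**Figure D2:**
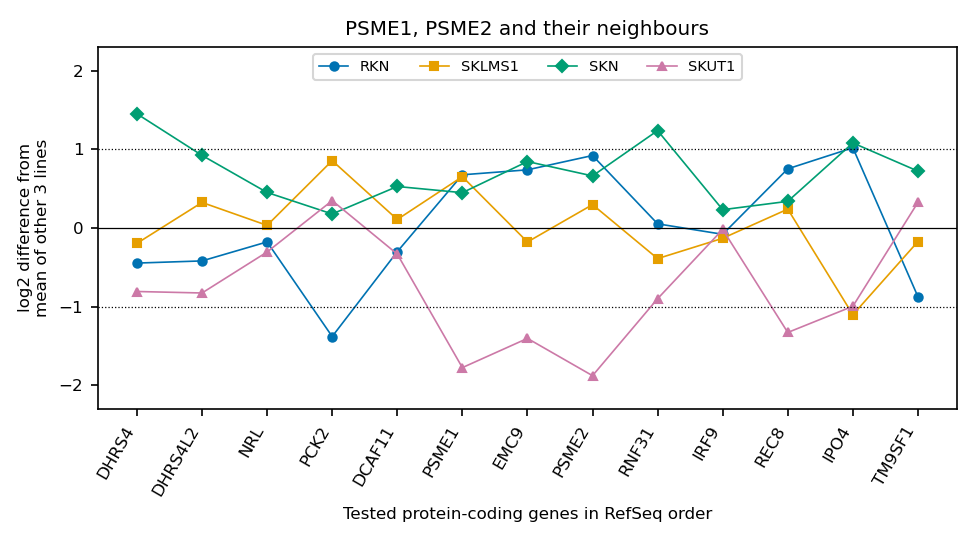
Difference of each line from the mean of the other 3 (y axis, log2(FPKM + 1)) for PSME1, PSME2 and the compared protein-coding genes on both sides, in RefSeq order (x axis, not to scale). Dotted lines mark 2-fold, and SKUT1 lies below -1 at PSME1, EMC9, PSME2 and REC8.

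The promoters of these 2 genes are shown with that of PSMB10 because interferon gamma is known to induce all 3. Each line gives the 250 bases before the transcription start in RefSeq (GRCh38.p14), 5′ to 3′ on the gene's strand. Capitals mark matches on either strand to 1 of the motifs searched, which were the core of the element bound by interferon regulatory factors, TGACNNNGC (the core of the antioxidant response element), the box with the letters CCAAT, the GC box with the letters GGGCGG, and the cAMP response element with the letters TGACGTCA. Matches may overlap. The windows are chr14:24135944-24136193 (plus strand) for PSME1, chr14:24146611-24146860 (minus strand) for PSME2 and chr16:67936851-67937100 (minus strand) for PSMB10.
PSME1: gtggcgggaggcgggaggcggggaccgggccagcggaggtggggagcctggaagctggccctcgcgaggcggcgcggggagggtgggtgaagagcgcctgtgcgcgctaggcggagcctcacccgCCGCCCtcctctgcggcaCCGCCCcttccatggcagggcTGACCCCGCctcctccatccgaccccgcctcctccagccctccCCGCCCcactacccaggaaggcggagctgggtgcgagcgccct
PSME2: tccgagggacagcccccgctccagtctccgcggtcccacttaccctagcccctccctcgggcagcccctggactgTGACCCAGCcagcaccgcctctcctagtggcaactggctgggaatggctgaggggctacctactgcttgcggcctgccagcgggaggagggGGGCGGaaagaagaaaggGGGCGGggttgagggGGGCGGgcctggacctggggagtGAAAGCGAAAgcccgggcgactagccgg
PSMB10: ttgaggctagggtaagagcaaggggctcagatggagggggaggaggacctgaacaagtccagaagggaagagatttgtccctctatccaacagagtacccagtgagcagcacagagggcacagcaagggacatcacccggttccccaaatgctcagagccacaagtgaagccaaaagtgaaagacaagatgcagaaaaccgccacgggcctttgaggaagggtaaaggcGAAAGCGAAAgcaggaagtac

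PSME2 and PSMB10 each held 1 match to the element of interferon regulatory factors, and PSME1 held none in this window. That motif was in 5 of 51 promoters of proteasome members (9.8%), against 3.02% of all 35116 promoters. The other members with it were PSMA4, PSMB4 and PSMG4. PSME1 and PSME2 each had 1 match to TGACNNNGC and 3 to the GC box. TGACNNNGC was in 13 member promoters (25.5%, against 10.9% of all), the GC box in 31 (60.8% against 42.6%), CCAAT in 19 (37.3% against 32%), and TGACGTCA in 0 against 1.65%. The 51 promoters belonged to 42 members, some with several starts, and the remaining 6 were PSMA7, PSMB1, PSMB6, PSMB7, PSMD4 and PSMG3. A match describes the letters of a window and shows no binding.

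Other genes of the interferon gamma route did not share 1 order of the lines. IRF1, a transcription factor that acts on immunoproteasome genes, was 9.95 in RKN, 10.00 in SKLMS1 and 6.66 in SKN, and 5.69 in SKUT1. SOCS1, the feedback inhibitor of the route, was 2.88, 3.34, 30.5 and 0.0809 in the same order. IFNGR2, a chain of the receptor, was lowest in SKLMS1 at 14.1 and lay at 38.2 to 43.8 elsewhere. The kinase JAK1 was lowest in RKN at 35.9 and highest in SKUT1 at 92.5. SKUT1 was thus the lowest line for IRF1 and SOCS1, as for PSME1 and PSME2, and the highest for IFNGR2 and JAK1. Among other genes of the list, JAK2 (5.31) and STAT2 (20.8) were also highest in SKUT1. IRF2 and IRF9 were highest in SKN, and IFNGR1 in SKLMS1. The difference of IRF1 in SKUT1 was -0.54 and that of SOCS1 -2.90, where the median of the 10 genes listed was 0.60.

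The other activators were lowest in SKLMS1. PSME3, the nuclear PA28 gamma, was 56.6 in RKN, 28.0 in SKLMS1 and 55.8 in SKN, and 53.6 in SKUT1, so that SKLMS1 alone stood below, at -0.96. PSME4, the large activator PA200, was 15.0, 5.95, 17.9 and 20.1 in the same order, again lowest in SKLMS1, at -1.41. PSMF1, the inhibitor PI31, was 30.3, 32.4, 44.5 and 24.9 in RKN, SKLMS1, SKN and SKUT1, so that, like PSME1 and PSME2, it was lowest in SKUT1, at -0.48. With PSMD2, 2 of 43 members were at least 2-fold lower in SKLMS1, against 9.83% of all genes, and none was 2-fold higher, against 10.7%.

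**Figure D3:**
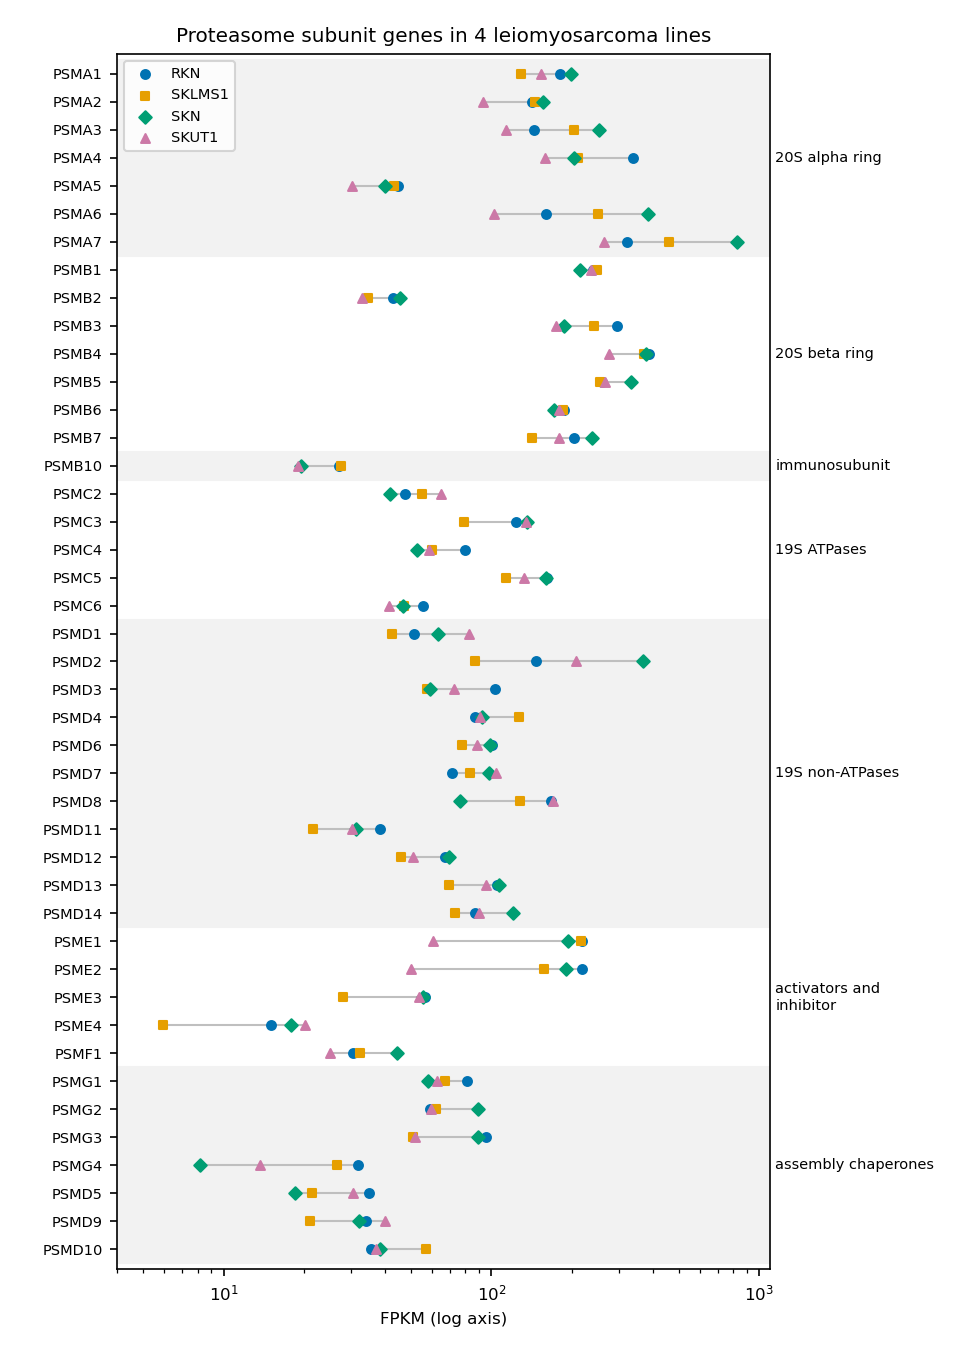
FPKM on a log axis for the 43 members compared, by functional group (shading), with 1 marker for each line and a grey bar from the lowest to the highest. SKUT1 stands apart at PSME1 and PSME2 and SKLMS1 at PSME4, while SKN is the highest line at PSMA7 and PSMD2 and the lowest at PSMG4.

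The alpha ring of the core was low in SKUT1. All 7 alpha subunits compared were below the mean of the other lines there, where 51% of all genes were, and SKUT1 was the lowest line for 6 of the 7, against 27.9% of all genes. The exception was PSMA1, lowest in SKLMS1 (129). Their median difference in SKUT1 was -0.66, or -0.63 from the median of all genes. All 7 remained below under each of the other scalings of the columns (TPM, median of ratios and quantiles), where 50.6 to 62% of all genes were below, and under TPM and quantile scaling SKUT1 was lowest for 7.

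PSMA6 and PSMA7 had the widest ranges of the alpha ring, and both were highest in SKN. PSMA7, which also binds regulators outside the proteasome, was 321 in RKN, 463 in SKLMS1 and 824 in SKN, and 263 in SKUT1. In SKN it lay 1.28 above the other lines. PSMA6 was 160.5, 249, 384 and 103 in the same order, 1.26 above the others in SKN and 1.27 below them in SKUT1, 2 comparisons that rest on the same 4 libraries. Without SKUT1 the difference of PSMA6 in SKN was 0.94, and without SKN that in SKUT1 was -0.96, both inside 2-fold. In GENCODE release 29, 79.7% of the 75-base windows of PSMA6 also belonged to the overlapping locus AL121594.1, and the annotation behind the deposited values is not given in the sources used here. With PSMD2, 3 of 43 members were at least 2-fold higher in SKN, against 9.97% of all genes.

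The remaining alpha subunits varied less. PSMA4 was highest in RKN at 339 and was 210.0 in SKLMS1 and 203 in SKN, and 158 in SKUT1. PSMA3 was 145, 203, 253 and 113 in the order of RKN, SKLMS1, SKN and SKUT1. PSMA1 lay between 129 and 199 and PSMA2 between 92.8 and 156. PSMA5 was the least abundant alpha subunit in every line, at 44.7, 43.4, 40.2 and 30.1.

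Several neighbours of PSMA7 were also high in SKN. Of the 10 nearest protein-coding genes compared on chromosome 20, 9 lay above the other lines in SKN, against 47% of all genes, and 5 at least 2-fold, against 9.97%, with a median difference of 1.02. ADRM1, which encodes a ubiquitin receptor of the 19S particle, is among the 9 and just inside 2-fold at 0.98, and was 101 in RKN, 99.2 in SKLMS1 and 202 in SKN, and 105 in SKUT1. Around PSMA6, 9 of 10 lay above in SKN and 3 at least 2-fold, with a median of 0.49. NFKBIA, the NF-kB inhibitor next to PSMA6, was 48.9 in RKN, 35.8 in SKLMS1 and 252 in SKN, and 25.3 in SKUT1.

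The beta ring had the smallest median range of the groups, 0.46. None of its 7 members had lines 2-fold apart, and their ranges ran from 0.12 for PSMB6 to 0.76 for PSMB3. PSMB6, the caspase-like catalytic subunit, was 187 in RKN, 186 in SKLMS1 and 172 in SKN, and 179 in SKUT1. A range no larger than its 0.12 was found for 0.139% of all genes compared, PSMB6 included. PSMB1 was 239, 248, 214 and 235 in the same order. PSMB5, the chymotrypsin-like subunit that bortezomib inhibits, was 258, 254, 333 and 266, with SKN the highest. PSMB7, the trypsin-like subunit given above, had SKLMS1 as its lowest line, at -0.53. PSMB3 was 296 in RKN and 242, 187 and 174 in SKLMS1, SKN and SKUT1, and PSMB4 was 389, 373, 377 and 275. PSMB2 was the least abundant beta subunit of the constitutive ring in every line, at 33.0 to 45.8. Under quantile scaling SKUT1 became the lowest line for 7 of the 7 (33.4% of all genes) and under TPM for 6 (38.2%), where it was for 3 of the deposited values, so an order of lines within this ring depends on the scale.

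The non-ATPase subunits of the 19S particle were low in SKLMS1, and which line was lowest depended on the scale. Of the 11 non-ATPase subunits compared, 10 were below the other lines in SKLMS1, where 53.6% of all genes were, and SKLMS1 was the lowest line for 8, against 21.9% of all genes. Their median difference there was -0.42, or -0.36 from the median of all genes. After subtraction of the median of all genes, 9 of the 11 remained below under every scaling. On the TPM scale SKLMS1 was the lowest line for 4, against 17.6% of all genes, and SKUT1 also for 4, against 38.2%. After quantile scaling SKLMS1 was lowest for 6, against 22.5% of all genes, and SKUT1 for 3, against 33.4%. Over all 16 subunits of the particle SKLMS1 was lowest for 10, against 21.9% of all genes. On the TPM scale SKLMS1 was lowest for 5 of them and SKUT1 for 7, against the same 17.6% and 38.2%. The exception above the others was PSMD4, a ubiquitin receptor, which was highest in SKLMS1 at 127 and 87.1 to 92.2 elsewhere, and which shared 11.6% of its windows with PIPSL, a fusion retrogene.

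PSMD2, a large scaffold subunit of the 19S base, had the widest range of this particle. It was 147 in RKN, 87.0 in SKLMS1 and 369 in SKN, and 207 in SKUT1. The 4 lines were spread evenly on the log scale, with 4.25 times as much in SKN as in SKLMS1. In SKN PSMD2 lay 1.41 above the other lines, and in SKLMS1 1.36 below them on the log2 scale, or at -0.996 without SKN, just inside 2-fold. Of the 10 compared neighbours of PSMD2 on chromosome 3, 8 were above the other lines in SKN, against 47% of all genes (median 0.61). At least 2-fold above were 2, against 9.97%. In SKLMS1 9 were below, against 53.6% (median -0.78), and 1 at least 2-fold, against 9.83%. That gene was EIF4G1, a translation initiation factor, at 142 in RKN, 70.1 in SKLMS1 and 159 in SKN, and 172 in SKUT1. PSMD1, the other large scaffold of the base, was 51.6, 42.7, 63.3 and 82.2 in RKN, SKLMS1, SKN and SKUT1. It shared SKLMS1 as its lowest line and RKN as the next with PSMD2, but was highest in SKUT1.

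The window before PSMD2 (chr3:184298991-184299240, plus strand) and that before PSMA6 (chr14:35292067-35292316, plus strand) are given for the core and base subunits that differed most between the lines, with capitals as above. RefSeq gives 2 starts for each of these genes, and the window of the more upstream start is shown.
PSMD2: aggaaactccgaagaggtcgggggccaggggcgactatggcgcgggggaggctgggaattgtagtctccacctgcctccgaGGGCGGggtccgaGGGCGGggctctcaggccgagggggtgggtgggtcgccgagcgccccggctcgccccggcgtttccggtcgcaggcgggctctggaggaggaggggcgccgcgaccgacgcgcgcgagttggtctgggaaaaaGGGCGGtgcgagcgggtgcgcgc
PSMA6: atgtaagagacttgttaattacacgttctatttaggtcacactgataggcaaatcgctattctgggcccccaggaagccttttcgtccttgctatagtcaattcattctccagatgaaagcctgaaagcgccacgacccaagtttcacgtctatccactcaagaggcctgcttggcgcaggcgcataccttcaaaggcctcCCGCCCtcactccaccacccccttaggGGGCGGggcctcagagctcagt

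Both windows shown held the GC box, 3 times for PSMD2 and 2 times for PSMA6, and none of the other motifs. The window of the other PSMD2 start held none of the motifs, and that of the other PSMA6 start held the GC box. The windows shown differed in base composition, with a GC content of 74.4% for PSMD2 and 52.8% for PSMA6.

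PSMD8, a lid subunit, went the other way in SKN. It was 167 in RKN, 128 in SKLMS1 and 76.1 in SKN, and 170.4 in SKUT1, and its difference in SKN of -1.004 lay at the 2-fold mark. With PSMG4, 2 of 43 members were at least 2-fold lower in SKN, against 10.8% of all genes. Without RKN the PSMD8 difference was -0.94 and without SKUT1 -0.93, so its place past the mark depends on both lines. PSMD14, the deubiquitinating enzyme of the lid, was 86.6 in RKN, 73.0 in SKLMS1 and 120.4 in SKN, and 90.2 in SKUT1. PSMD3 was 103 in RKN and 57.6 to 72.8 elsewhere. The narrowest were PSMD6, at 101 in RKN, 77.7 in SKLMS1, 98.7 in SKN, then 88.6 in SKUT1, and PSMD7, at 71.5, 83.6, 98.2 and 104. PSMD11, at 21.6 to 38.5, was the least abundant non-ATPase subunit in every line, and PSMD12 and PSMD13 lay at 46.1 to 69.5 and 69.6 to 106.

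The 5 ATPases compared were also even, with ranges from 0.41 to 0.77. PSMC3 was 123 in RKN, 79.4 in SKLMS1 and 136 in SKN, and 134 in SKUT1, so SKLMS1 stood below. PSMC5 was 161, 114, 160 and 133 in the same order. PSMC2, at 41.8 to 65.0, was the ATPase with SKUT1 as its highest line. PSMC4 was highest in RKN at 79.8 and 53.0 to 59.9 elsewhere, and PSMC6 was 41.5 to 55.3.

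Core and cap transcripts stood in unequal proportion in each line. The median of the 14 subunits of both core rings was 195 in RKN, 207 in SKLMS1 and 208 in SKN, and 166 in SKUT1. The median of the 16 subunits of the 19S particle was 86.9, 71.3, 84.2 and 89.4 in the same order. Their ratio was 2.24 in RKN, 2.90 in SKLMS1 and 2.47 in SKN, and 1.86 in SKUT1. Multiplying a column by a constant leaves this ratio as it is, so unlike the order of the lines for single genes it does not depend on TPM or median-of-ratios scaling. The ratio was highest in SKLMS1 and lowest in SKUT1.

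**Figure D4:**
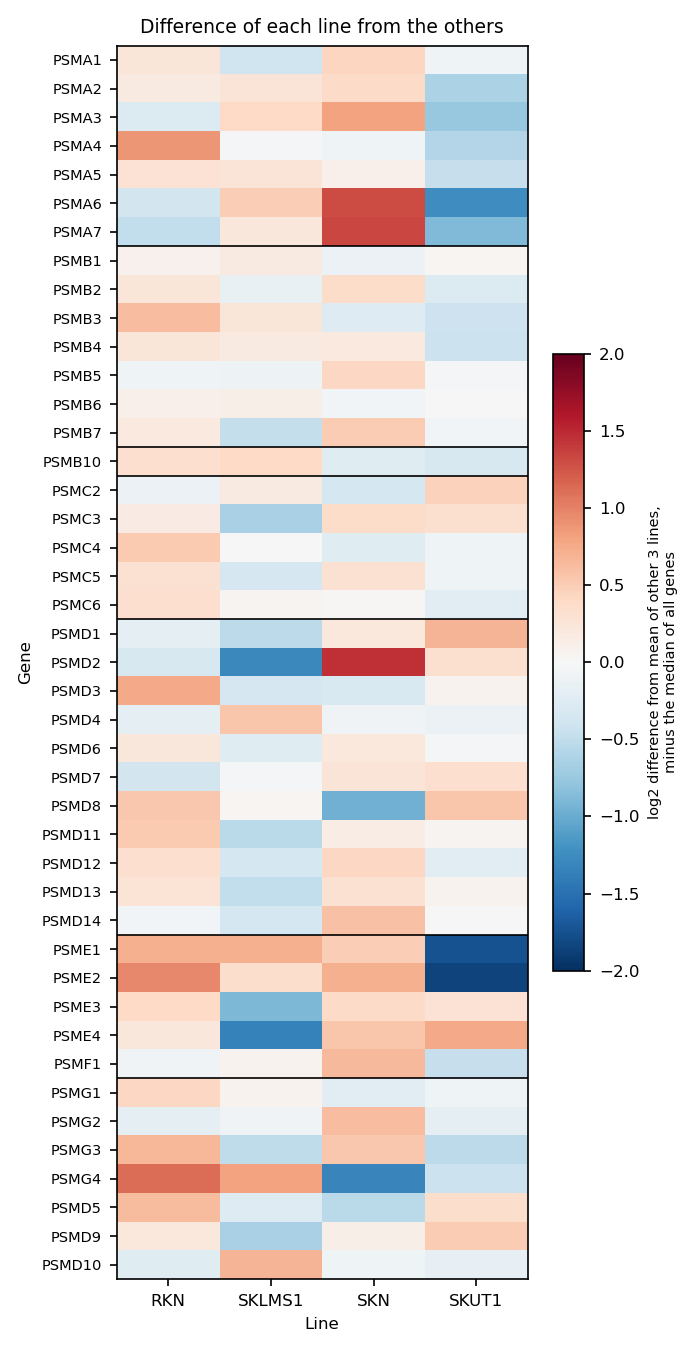
Difference of each line from the mean of the other 3 lines for the 43 members (rows, ordered by functional group), on the log2(FPKM + 1) scale after subtraction of the median of all genes. Red is higher and blue lower, with the alpha ring and PSME1 and PSME2 blue in SKUT1, and PSMD2 and PSME4 blue in SKLMS1.

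Among the assembly factors, PSMG4 was the variable member. PSMG4, part of the chaperone pair that helps build the alpha ring, was 31.7 in RKN, 26.5 in SKLMS1 and 8.18 in SKN, and 13.7 in SKUT1. RKN and SKLMS1 were the high lines and SKN the lowest, 1.37 below the others. In RKN PSMG4 lay 1.08 above, the 1 of 43 members at least 2-fold higher there, against 11.6% of all genes, and no member was 2-fold lower, against 16.6%. That difference was 0.70 without SKN and 0.89 with a pseudocount of 5. The 10 compared neighbours of PSMG4 on chromosome 6 were all below the other lines in SKN, against 53% of all genes, and 4 of them at least 2-fold, against 10.8%. In RKN, where PSMG4 was high, 5 of the 10 lay above the other lines, against 48.3% of all genes, with a median difference of -0.0017. At least 2-fold above was 1, against 11.6%, and 3 lay at least 2-fold below, against 16.6%. PSMG3, the partner of PSMG4, was 95.8 in RKN, 51.0 in SKLMS1 and 89.5 in SKN, and 51.7 in SKUT1, a different order.

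PSMG1 and PSMG2, the other chaperone pair of the alpha ring, were even at 57.9 to 81.2 and 59.0 to 89.2. Of the chaperones of the 19S base, PSMD5 was 35.0, 21.4, 18.5 and 30.4 in RKN, SKLMS1, SKN and SKUT1, PSMD9 was lowest in SKLMS1 at 21.1 with 32.1 to 39.9 elsewhere, and PSMD10, known as gankyrin, was highest in SKLMS1 at 57.2 with 35.4 to 38.3 elsewhere. POMP, the maturation factor of the core that has no PSM symbol, was 52.7, 67.0, 78.1 and 129 in RKN, SKLMS1, SKN and SKUT1. POMP was thus highest in the line in which the alpha ring was lowest, at 0.98 above the others.

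Of 11 partners without a PSM symbol, none was at least 2-fold higher than the other lines in any line and 1 was lower, in SKN, against 10.8% of all genes. Their highest and lowest lines were at least 2-fold apart for 4 of the 11, against 67.2% of all genes. The ranges of these 4 were 1.02 for ADRM1, 1.04 for UBE3C, 1.28 for POMP and 1.49 for TXNL1. The gene lower in SKN was TXNL1, a thioredoxin-like protein of the 19S particle, at 112 in RKN, 77.5 in SKLMS1 and 39.3 in SKN, and 96.7 in SKUT1. SHFM1, the small lid subunit now called SEM1, was 260.3, 375, 264 and 234. The deubiquitinating enzymes USP14 and UCHL5 were 23.9 to 40.3 and 17.1 to 28.8.

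NFE2L1, the transcription factor known to raise proteasome genes when proteasome activity is short, was high in SKUT1. It was 42.7 in RKN, 39.2 in SKLMS1 and 59.7 in SKN, and 187 in SKUT1, a difference of 1.99 there. NFE2L2, its relative of the oxidative stress response, was 41.3, 47.7, 36.9 and 87.1, a difference of 1.04 in SKUT1. No member was 2-fold higher in SKUT1, as given above, and the median of the 43 members there was -0.12, or -0.09 from the median of all genes. In the other lines that second value was 0.24 in RKN, -0.02 in SKLMS1 and 0.25 in SKN. NFE2L1 is activated after translation, and its protein was not measured. Of its activating enzymes, NGLY1, which removes its sugars, was 28.995 in RKN, 9.68 in SKLMS1 and 7.20 in SKN, and 13.3 in SKUT1. NGLY1 was the 1 of 6 genes of this route at least 2-fold higher in RKN, against 11.6% of all genes. It was also the 1 at least 2-fold lower in SKN, against 10.8%. The protease DDI2 was 2.33 to 6.02, and the ATPase VCP was 133 to 198.

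Of the genes that supply the proteasome with ubiquitin, UBB was nearly absent from 1 line. UBB was 0.232 in RKN and 551, 608 and 718 in SKLMS1, SKN and SKUT1. RPS27A, a fusion of ubiquitin with a ribosomal protein, was 352 in RKN, 349 in SKLMS1 and 714 in SKN, and 275 in SKUT1. RAD23B, a shuttle protein that carries ubiquitinated substrates, was even at 56.9 to 77.0. UBQLN4, another shuttle, was 19.4 in RKN, 10.6 in SKLMS1 and 5.85 in SKN, and 7.27 in SKUT1.

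Of the genes that handle proteasome products outside the histocompatibility complex, B2M, the light chain of class I molecules, was 869 in RKN, 1444 in SKLMS1 and 1084 in SKN, and 1879.7 in SKUT1. The peptide-trimming ERAP1 was 5.38 in RKN and 20.7 to 27.5 elsewhere, and the loading chaperone CALR was 329, 489, 499.5 and 1383 in RKN, SKLMS1, SKN and SKUT1. ERAP2, the other trimming peptidase, was 13.2, 13.5 and 16.2 in RKN, SKLMS1 and SKN, but 0.315 in SKUT1, the line in which PSME1 and PSME2 were low. NLRC5, the coactivator of class I genes, was 4.16, 4.86, 1.11 and 3.24.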

How the data were processed

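Poly(A) RNA of 4 lines was read as single-end reads of 75 bases from a stranded library, per the labels' protocols. The deposited values are FPKM per gene symbol, made by the authors with STAR and Cufflinks on hg19, per the submitters' processing notes. The sources used here do not give versions, annotation or strand setting. Of 23610 rows, 28 whose symbol had become a date number and 5 with an error cell were left out. Genes that reached 1 FPKM in some line (13713) were compared as log2(FPKM + 1), each line against the mean of the other 3, with a threshold of 2-fold. With 1 library per line there was no test, and the 4 comparisons share libraries. Multiplying columns to equal sums (TPM) moved the median difference of all genes from -0.04 to 0.24 in RKN and from -0.03 to -0.31 in SKUT1, so differences are also given relative to that median. Planned means over 3 immunosubunit pairs are not given, as 2 pairs rest on listed zeros. Members, lists and neighbours were chosen with earlier results of these data known. Values in every line were printed for members past 2-fold, immunosubunits, and up to 4 widest and 2 narrowest of each group, and from the other lists for POMP, NFE2L1, TAP1, TAP2 and up to 3 widest, some of which are not reported here; further genes were named after their values were seen. RefSeq (GRCh38.p14) placed 97.7% of compared symbols, and was used for gene order. No hg19 annotation was used here. Code was tested on simulated data. Python 3.11.15, numpy 2.4.6, pandas 2.3.3 and matplotlib 3.10.9 were used.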

Additional observations from a re-analysis of the deposited data

How the results depend on the processing

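Of 163 values under 12 alternatives, 148 stayed within 1.5 times or 1.5-fold of the reported value and none changed sign past 2-fold. All 11 differences of a member past 2-fold remained with a pseudocount of 0.1, TPM, median-of-ratios or quantile scaling, no filter, a mean FPKM of 10 or more, or the median of the other lines. With a pseudocount of 5, members higher in RKN fell to 0 and lower in SKN to 1 (PSMG4 and PSMD8 were lost). On the TPM scale 4 members were higher in RKN, 5 lower in SKUT1 and 18 had lines 2-fold apart, the last against 74.9% of all genes. After quantile scaling these were 3, 6 and 16, the last against 68.2%. The median difference of all genes moved too, to 0.24 in RKN and -0.31 in SKUT1 on the TPM scale. After quantile scaling it was 0.07 in RKN and -0.17 in SKUT1. The added members were PSMA3, PSMA7 and, after quantile scaling, PSMA4 in SKUT1, and PSMA4, PSME2 and, on the TPM scale, PSMD3 in RKN. Leaving out 1 line at a time gave 1 to 3 higher members in RKN, 0 to 1 in SKLMS1, 2 to 4 in SKN and 0 to 1 in SKUT1. Lower members were 1 to 2 in SKLMS1, 1 to 2 in SKN and 3 to 4 in SKUT1. Lines were 2-fold apart for 6 to 9 members (6 without SKUT1), against 46.3 to 56.7% of all genes. For the counts of higher or lower members, shares over all genes were not computed under the alternatives, so these counts have no background. The cause of the changes was not tested. The median difference of the members from all genes ranged from 0.11 to 0.35 in RKN, -0.17 to 0.00 in SKLMS1, 0.13 to 0.31 in SKN and -0.30 to -0.06 in SKUT1. PSMB10 minus PSMB7 ranged from -3.597 (SKN) to -2.18 (SKLMS1) on the log2 scale. No paired analysis was possible because each line has 1 library. Depth is unknown, so no counting interval can be given for the low values of PSMA8 and PSMB11.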
